A study of Mus musculus with 3 samples.

Results

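Cluster 5 is a group of 226 cells, of 4668 in all, that carry the highest mitochondrial share of RNA in a pool of mouse brain cells. Its members are the cells to which the authors' deposited cell table gives cluster number 5, one of 11 clusters in that table. No cell type name comes with that number. The authors profiled 4 brains from female C57BL/6 mice aged 2 to 3 months by CITE-seq, which reads the messenger RNA of single cells together with DNA-tagged antibodies bound to their surface. Some mice carried established brain metastases, grown for about 2 weeks after E0771 cells, a mouse mammary carcinoma line, were injected into the carotid artery, and the others were naïve mice with no metastasis. Blood was flushed out by perfusion, brains were digested with papain, mononuclear cells were enriched on a Percoll gradient, and each brain received its own hashtag antibody before all were pooled into 1 cDNA, 1 antibody-tag and 1 hashtag library. The sources used here do not say which hashtag marks a naïve and which a metastatic brain, so each brain is given by its hashtag number, there is no comparison of metastatic with naïve brains, and each brain is 1 animal's cells in 1 shared run.

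Mitochondria keep a small genome of their own that encodes 13 proteins of the respiratory chain and ATP synthase, and the messenger RNAs for these are made and held inside the organelle. All other respiratory chain subunits, and all ribosomal proteins of the cytosol, come from nuclear genes whose messages are translated outside mitochondria. The mitochondrial share of a cell's RNA differs between cell types with their energy use, and in droplet experiments a high share is commonly read as a sign of a damaged cell, because cytosolic RNA can be lost while RNA enclosed in organelles stays; no measurement here tells intact from damaged cells. Choroid plexus epithelium, which makes cerebrospinal fluid and secretes the thyroid hormone carrier transthyretin, is known as a tissue rich in mitochondria.

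A cell's brain and its surface proteins were read from short DNA barcodes attached to the antibodies, shown here because they assign every member to its brain and give the only measurements that were not part of the RNA. The 4 hashtag barcodes and the barcodes of the CD45 and CD11b antibodies, 5′ to 3′, were:
hashtag 1: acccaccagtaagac
hashtag 2: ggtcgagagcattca
hashtag 3: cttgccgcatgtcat
hashtag 4: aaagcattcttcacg
CD45: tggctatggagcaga
CD11b: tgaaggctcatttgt

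Cluster 5 was found in every brain. It made up 62 of 844 cells of the hashtag 1 brain, which is 7.35% with an exact binomial 95% interval of 5.68 to 9.32%. In the hashtag 2 brain it held 29 of 410 cells, or 7.07% (4.79 to 10.0%). The hashtag 3 brain had 55 of 1385 cells in it, or 3.97% (3.01 to 5.14%), and the hashtag 4 brain 80 of 2029, or 3.94% (3.14 to 4.88%). The shares in the hashtag 1 and 2 brains lay above those in the hashtag 3 and 4 brains. The interval of the hashtag 2 brain still reaches into those of both the hashtag 3 and the hashtag 4 brain. These intervals cover counting error only. Unique molecular identifiers (UMIs) count captured RNA molecules, and cells of cluster 5 held 223268, 117591, 243400 and 401174 of them in the hashtag 1, 2, 3 and 4 brains. The median was 3830 UMIs and 1399 genes per cell in cluster 5, against a median of 9472 UMIs over all cells.

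Cluster 5 is called high in mitochondrial RNA after its mitochondrial share in these same cells. The values that follow describe that name and are no check of it. The median mitochondrial share was 14.8% in cluster 5, with a range of 2.48 to 24.3%, against medians of 1.20 to 8.39% in the other 10 clusters. By brain the median in cluster 5 was 17.2, 16.9, 13.2 and 12.2% for hashtags 1 to 4. Set against the mean of the other clusters' medians in the same brain, cluster 5 lay 11.9, 9.79, 10.6 and 9.88 percentage points higher, a mean of 10.5 ± 0.99 (SD, n = 4 brains). The closest cluster was cluster 1, with 8.39%. Of 141 cells in the whole pool at 15% or more, 108 belonged to cluster 5, and of 536 cells at 10% or more, 170 did and 225 belonged to cluster 1. The cluster is no plain cut on this measure, since 17 of its 226 cells were under 5%. The clusters are taken to have been made from this RNA, which the sources used here do not state. This and every gene difference below therefore describes the clusters and has no test.

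**Figure D1:**
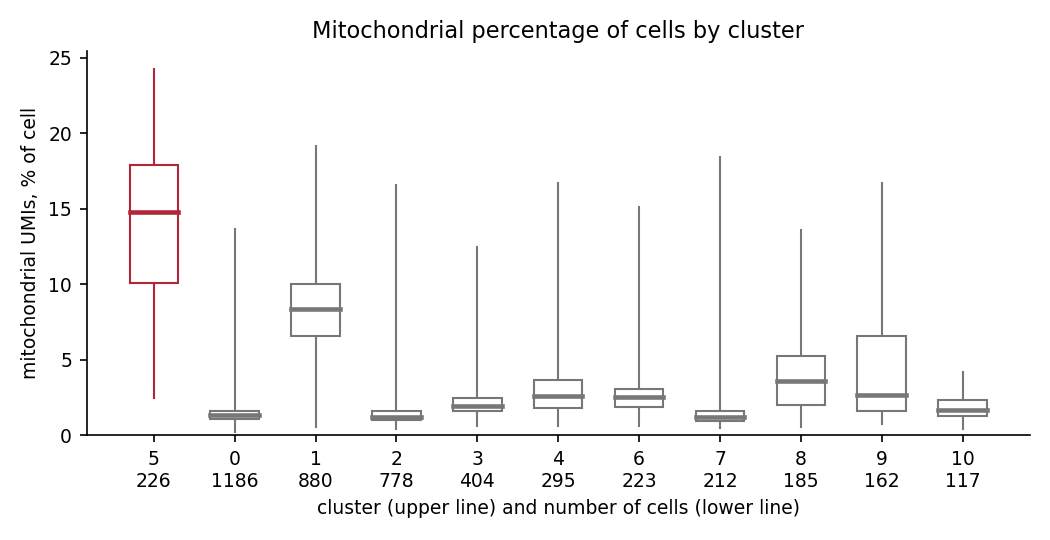
Mitochondrial UMIs as a percentage of all UMIs of a cell (vertical axis) in cluster 5, drawn first in red, and in the other 10 clusters in grey. Boxes run from the lower to the upper quartile with the median as a thick line, and thin lines reach the lowest and highest cell; the box of cluster 5 (median 14.8%) lies above that of every other cluster, of which cluster 1 (8.39%) is the highest.

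All 13 mitochondrially encoded messages were at least 2-fold higher in cluster 5 than in the mean of the other clusters, and for each of them cluster 5 was the highest of the 11 clusters. Levels here are UMIs per 10000 UMIs summed over a cluster's cells in each brain and averaged over brains, differences are log2 values after adding 0.1, and genes at 0.2 per 10000 or more on either side were compared. Among 6076 such genes, 250 (4.11%) were at least 2-fold higher in cluster 5 and 306 (5.04%) at least 2-fold lower, with a median difference over all genes of 0.02. The mitochondrial messages differed by 1.20 to 2.09, with a median of 2.00.

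The largest of these differences were in mt-Nd3 and mt-Nd1, both subunits of respiratory complex I. The mt-Nd1 message was at 201, 218, 109 and 95.6 per 10000 in cluster 5 of the hashtag 1 to 4 brains, a mean of 156 ± 62.6 (SD, n = 4), against 36.5 in the mean of the other clusters, a difference of 2.09. Levels in the hashtag 1 and 2 brains were about alike and above those in the hashtag 3 and 4 brains. The mt-Co1 message, for the catalytic subunit of cytochrome c oxidase, was more even, at 280, 252, 245 and 240 per 10000 in cluster 5, against 68.7 in the others (1.89). The ATP synthase message mt-Atp8 differed least, with 3.57 ± 0.70 per 10000 in cluster 5 and 1.50 in the others (1.20). The mt-Nd6 message, the only one of the 13 copied from the other strand of the mitochondrial genome, was scarce, at 0.98 ± 0.49 against 0.20 (1.85). Unlike mt-Nd1, it was higher in the hashtag 3 and 4 brains, at 1.40 and 1.40, than in the hashtag 1 and 2 brains, at 0.72 and 0.43.

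Nuclear genes for the same machinery did not share this difference. Of 60 nuclear genes of the respiratory complexes, 0 were 2-fold higher and 0 were 2-fold lower in cluster 5, and their median difference was 0.01, next to 0.02 for all genes. Messages of cytosolic ribosomal proteins lay lower: 28 of 79 were at least 2-fold lower, 0 of 79 were above 0, and the median was -0.94. Rpl35, a protein of the large ribosomal subunit, had 16.3, 16.9, 48.8 and 41.0 per 10000 in cluster 5 of the hashtag 1 to 4 brains, against 78.9 in the others. All 4 brains were below that mean, and the hashtag 1 and 2 brains were lowest. Cluster 1, whose profile was the most like that of cluster 5, had fewer of these messages: against it the ribosomal median was 0.40, with 76 of 79 above 0, next to 0.23 for all genes in that comparison. Cytoskeletal genes lay low too, with 4 of 21 at least 2-fold lower and 0 at least 2-fold higher and a median of -0.70; Actb, or beta-actin, was at 42.0 ± 22.5 against 97.0 (-1.20). Against cluster 1 the cytoskeletal list also lay the other way, with a median of 0.64 and 21 of 21 above 0.

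Stress lists gave no common direction. Of 23 measured genes of the unfolded protein and integrated stress response, 2 were 2-fold higher and 2 lower (median -0.08). Of 21 genes of mitophagy, autophagy and mitochondrial stress, 1 was higher and 0 lower (-0.07), and of 12 p53 and apoptosis genes 0 were 2-fold different (-0.08). Of 21 immediate early genes, which switch on within minutes of a stimulus or of tissue handling, 0 were 2-fold higher and 8 were 2-fold lower (-0.87), among them Jun at 1.46 ± 0.27 per 10000 against 3.32 (-1.13). Much of the mean of the other clusters came from clusters 3 and 4: the measured genes of this list summed to 28.1 per 10000 in cluster 5, against 158 in cluster 3, 102 in cluster 4 and 29.7, 29.5 and 28.2 in clusters 0, 2 and 7. Against cluster 1 the median of the list was 0.25, next to 0.23 for all genes. Of 16 heat shock and chaperone genes 3 were higher (median 0.09), and these included the inducible chaperones Hspa1a and Hspa1b. They rest on a single cell, which held 56 of the 62 Hspa1a UMIs and 29 of the 36 Hspa1b UMIs of cluster 5. Without the hashtag 4 brain, Hspa1a differed by -0.88.

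The nuclear genes highest in cluster 5 included choroid plexus markers and a few genes carried by 8 cells. Of 12 choroid plexus markers, 10 were at least 2-fold higher than in the mean of the other clusters and 0 were lower, with a median of 1.26. These markers summed to 1840 per 10000 in cluster 5, against 3203 in cluster 1 and 1627 in cluster 8. Ttr, transthyretin itself, was at 2400, 2653, 1008 and 786 per 10000 in cluster 5 of the hashtag 1 to 4 brains, against 811 in the others (1.08) and 3029 in cluster 1. The hashtag 1 and 2 brains stood far above the hashtag 3 and 4 brains, of which the last lay below the mean of the other clusters. Enpp2, the secreted lysophospholipase autotaxin, was at 94.5 ± 60.1 against 29.9 (1.66), and Kl, the anti-ageing protein klotho, at 9.28 ± 6.17 against 2.98 (1.60). The highest folds of this kind were in Col9a3, a chain of collagen IX, at 2.58 ± 1.86 against 0.53 (2.1), and Col8a2, a chain of collagen VIII, at 1.34 ± 0.85 against 0.25 (2.03).

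Ctsk, Acp5 and Mmp9 had the largest differences of the named genes. Ctsk, cathepsin K, a protease that cuts collagen, was at 3.16 ± 1.98 against 0.07 (4.23), and Acp5, tartrate-resistant acid phosphatase, at 4.29 ± 2.04 against 0.28 (3.54). Mmp9, a secreted gelatin-cutting metalloprotease, was at 0.04, 0.17, 3.41 and 1.45 per 10000 in cluster 5 of the hashtag 1 to 4 brains, against 0.11 (2.70), and the hashtag 1 brain lay below that mean. These levels come from 8 cells, described further on. Without those cells the differences were -0.43 for Ctsk, -0.54 for Acp5 and -0.46 for Mmp9.

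Immune and blood cell markers were low in cluster 5. Of the listed genes that could be compared, 6 of 6 neutrophil, 8 of 10 microglial, 8 of 10 monocyte and macrophage, 5 of 5 T and NK cell and 4 of 4 erythroid genes were at least 2-fold lower than in the mean of the other clusters, which includes the immune clusters 3 and 6. S100a8, an abundant neutrophil calcium-binding protein, was at 3.79 ± 1.49 per 10000 against 43.0 (-3.47). Summed marker levels in cluster 5 lay within or near those of clusters that are not immune: 9.57 per 10000 for the neutrophil list, against 734.9 in cluster 6 and 5.14 in the lowest cluster, and 4.12 for the microglial list, against 117 in cluster 3 and 2.22 in the lowest cluster.

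Cluster 5 was not one kind of cell. Its summed profile over nuclear genes was most like that of cluster 1, with a Spearman correlation of 0.824, then cluster 9 (0.784) and cluster 2 (0.729), and least like that of the immune cluster 3 (0.393). Against cluster 1, 4.59% of 5792 genes were at least 2-fold higher in cluster 5 and 0.570% at least 2-fold lower. Against cluster 9 these shares were 3.00% and 3.81%, and against cluster 2 they were 5.85% and 4.78%. The mt-Nd1 message differed by 0.76 from cluster 1, by 1.36 from cluster 9 and by 1.85 from cluster 2. Each cell was then set beside the mean profile of each other cluster, over nuclear genes only. The highest correlation was with cluster 1 in 128 cells, 56.6% of the 226. Cluster 1 had the highest summed choroid plexus marker level of all clusters, 3203 per 10000, and these cells are called choroid-nearest here. A further 86 cells were closest to clusters 0, 2, 7 or 10, mostly to cluster 10, and are called Rhox5-cluster-nearest. In these 4 clusters Rhox5, a homeobox gene known to be active in the testis and placenta and in many mouse tumour lines, stood at 4.08 to 5.48 per 10000, the 4 highest levels of the 11 clusters. Another 8 cells were set apart by 20 or more UMIs of Ctsk, and 4 cells were nearest to another cluster. The same assignment returned 90.8% of the cells of cluster 1 to cluster 1, and 86.3 to 96.6% of the cells of clusters 0, 2, 7 and 10 to one of these 4. It did not tell all clusters apart: of clusters 0 and 2 only 1.85% and 0% of cells returned to their own number, 43.2% of cluster 8 went to cluster 1, and of cluster 9 17.3% returned, 20.4% went to cluster 1 and 50.6% to clusters 0, 2, 7 or 10. The sets were chosen after the values of these cells had been seen and are descriptions.

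The sets had different shares in the brains. In the hashtag 1 brain 57 of 62 cells were choroid-nearest and 4 were Rhox5-cluster-nearest, and in the hashtag 2 brain 28 of 29 and 0. In the hashtag 3 brain 22 of 55 cells were choroid-nearest and 29 were Rhox5-cluster-nearest, and in the hashtag 4 brain 21 of 80 and 53. The Ctsk-high cells numbered 1, 1, 3 and 3.

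**Figure D2:**
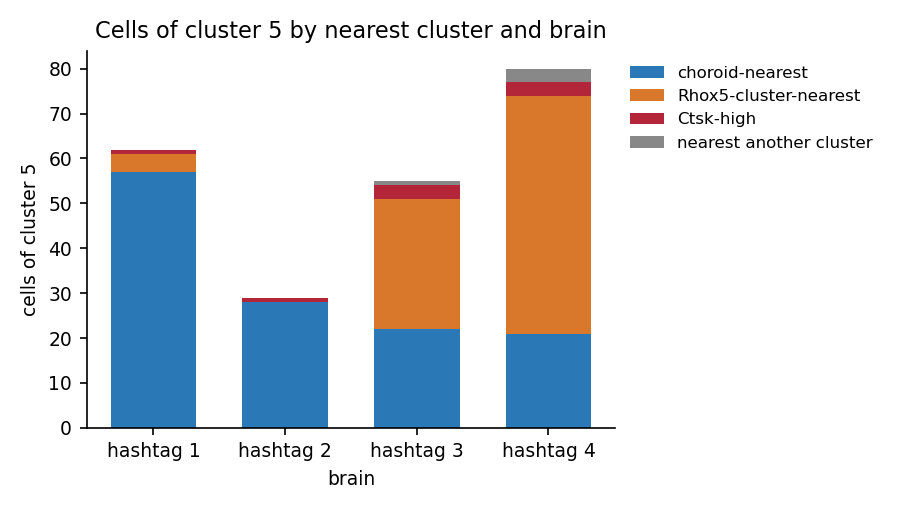
Number of cells of cluster 5 (vertical axis) in each of the 4 brains by hashtag, split by the set each cell falls in. Choroid-nearest cells (blue) are 57 and 28 cells of the hashtag 1 and 2 brains, and Rhox5-cluster-nearest cells (orange) are the larger set in the hashtag 3 and 4 brains, with 29 and 53 cells.

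Ttr differed between the 2 large sets with no overlap. It was among the nuclear genes that formed the sets, so this describes them and is no check. Ttr ran from 699 to 4913 per 10000 over single choroid-nearest cells, with a median of 2667, and from 77.4 to 354 over Rhox5-cluster-nearest cells, with a median of 173. Summed by brain, choroid-nearest cells held 2649, 2776, 2676 and 2764 Ttr per 10000 in the hashtag 1 to 4 brains, so within that set the brains were alike. Every one of the 226 cells held Ttr, and cells of clusters that should not make it held it too: 239 and 235 per 10000 in the immune clusters 3 and 6 and 108 in cluster 10. The level in Rhox5-cluster-nearest cells, 161 per 10000, lies between these and is not read as expression by these cells; free RNA in the pool was not measured.

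Other genes marked the same divide, and Kl, Rhox5, Xist and Malat1 were also among the genes that formed the sets. Kl was at 14.9 per 10000 (exact Poisson 95% interval 13.8 to 16.0) in choroid-nearest and 0.43 (0.26 to 0.67) in Rhox5-cluster-nearest cells. Such intervals pool the cells and brains of a set, cover counting error only and leave out the spread between cells and brains. Rhox5 was at 0.55 (0.36 to 0.80) in choroid-nearest and 4.09 (3.52 to 4.73) in Rhox5-cluster-nearest cells, where 75.6% of cells had a UMI against 21.1% of choroid-nearest cells. The immune clusters held 0.68 Rhox5 per 10000, about the choroid-nearest level, so no expression is read from it. Krt8, a keratin of simple epithelia and carcinomas, ran the same way at 0.69 (0.48 to 0.97) and 3.44 (2.91 to 4.03). Xist, the RNA that silences 1 X chromosome in female cells, was at 7.04 (6.31 to 7.82) in choroid-nearest cells. By brain it ran wider there, at 7.26, 8.20, 4.84 and 7.10 for hashtags 1 to 4. In Rhox5-cluster-nearest cells Xist was at 0.97 (0.70 to 1.31). It was at 0.24, 0.64, 1.71 and 2.71 in clusters 10, 7, 0 and 2, and at 7.34 in cluster 1. Malat1, a noncoding RNA kept in the nucleus, was at 67.0 in choroid-nearest and 343 in Rhox5-cluster-nearest cells.

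The mitochondrial share differed between the sets. The median was 17.0% in choroid-nearest cells, with a range of 9.65 to 24.3%, and 9.65% in Rhox5-cluster-nearest cells, with a range of 3.15 to 22.1%. Ctsk-high cells were lower, with a median of 4.65% and a range of 3.31 to 9.26%. Median depth was 3555, 4228 and 4839 UMIs in the 3 sets in that order. The lower mitochondrial median of cluster 5 in the hashtag 3 and 4 brains went with their larger share of Rhox5-cluster-nearest cells: among choroid-nearest cells alone the medians were 17.3, 16.9, 16.0 and 17.8% in the hashtag 1 to 4 brains.

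**Figure D3:**
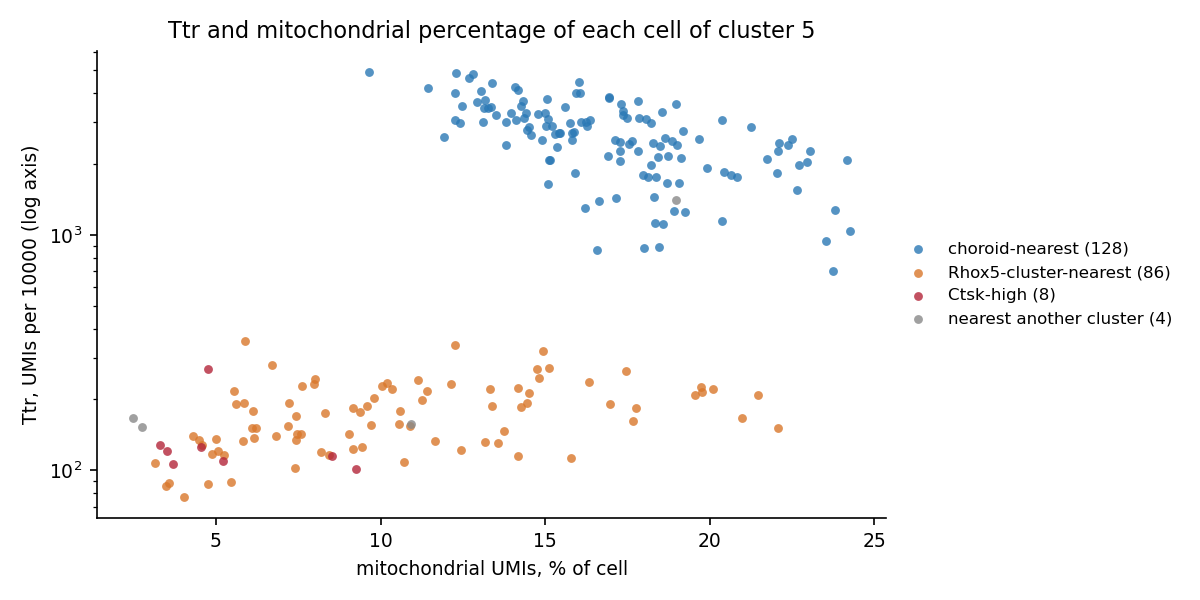
Each point is 1 of the 226 cells of cluster 5, placed by its mitochondrial UMIs as a percentage of the cell (horizontal axis) and its Ttr UMIs per 10000 on a log axis (vertical), and coloured by set. Choroid-nearest cells sit at 699 Ttr per 10000 or above, and Rhox5-cluster-nearest cells at 354 or below across mitochondrial shares of 3.15 to 22.1%.

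Choroid-nearest cells were first set beside cluster 1, whose cells they resemble. Levels in this comparison, and in that of Rhox5-cluster-nearest cells further on, are per 10000 UMIs of nuclear genes. The mitochondrial RNA itself then cannot push the other genes down. Set levels given above, and those of Ctsk-high cells, are per 10000 of all UMIs. The comparison was added after the data had been seen. The median mitochondrial share was 17.3, 16.9, 16.0 and 17.8% in choroid-nearest cells of the hashtag 1 to 4 brains, against 8.97, 8.94, 7.01 and 7.98% in cluster 1. The difference was 8.29, 7.99, 8.94 and 9.83 percentage points, in the same direction in each brain. Choroid-nearest cells were shallower, with a median of 3555 UMIs against 7283 in cluster 1. Against the 152 cells of cluster 1 with UMI totals in the range of choroid-nearest cells, from their 10th to their 90th percentile, the medians were 17.0% in choroid-nearest cells and 9.79% in these, a difference of 7.17 points. These cells, called cells of overlapping depth, were still deeper, with a median of 4278.5 UMIs, so that depth was narrowed and not equal.

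Few nuclear genes set choroid-nearest cells apart from cluster 1, and these cells were chosen for their likeness to it over nuclear genes. Of 5746 nuclear genes, 109 (1.90%) were at least 2-fold higher and 47 (0.818%) at least 2-fold lower, with a median of 0.13. All 13 mitochondrial messages were at least 2-fold higher, by 1.10 to 1.40. The mt-Co3 message was at 466, 457, 433 and 509 per 10000 in choroid-nearest cells of the hashtag 1 to 4 brains, against 208, 218, 136 and 144 in cluster 1. The groups did not overlap. The choroid plexus markers themselves were alike: 0 of 12 were 2-fold different, and Ttr was at 3277 ± 94.4 in choroid-nearest cells and 3276 ± 322 in cluster 1 (SD, n = 4 brains). Ttr was among the genes of that choice, so this likeness follows from how the set was made.

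The nuclear genes that differed most included Neat1, a noncoding RNA that builds paraspeckles inside the nucleus, at 1.86, 3.10, 4.21 and 3.11 per 10000 in choroid-nearest cells of the hashtag 1 to 4 brains, against 1.53, 1.31, 0.98 and 1.02 in cluster 1 (1.28). It was higher in every brain, least so in the hashtag 1 brain. Ace, the peptidase that makes angiotensin II, was at 4.99 ± 1.18 against 2.32 ± 0.46 (1.07), and Col9a3 at 4.67 ± 0.93 against 2.22 ± 0.36 (1.04). Ctsd, the lysosomal aspartic protease cathepsin D, was at 12.1 ± 1.68 against 6.16 ± 0.83 (0.96), and Psap, the precursor of the saposins, at 24.0 ± 1.25 against 13.2 ± 0.85 (0.86). On the lower side, Hist1h2ap, a replication-dependent histone, was at 0.39 ± 0.51 against 2.91 ± 1.90 (-2.61). Apoo, a protein of the inner mitochondrial membrane complex that shapes cristae, was at 0.67 against 2.07 (-1.50), and Rpl15, of the large ribosomal subunit, at 3.61 ± 0.58 against 7.54 ± 3.39 (-1.04).

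Ribosomal protein messages shifted as a group, by less than 2-fold. The median of the 79 genes was -0.39 in choroid-nearest cells against cluster 1, with 0 of 79 above 0 and 1 at least 2-fold lower. Against cells of cluster 1 of overlapping depth, where 3.84% of nuclear genes were at least 2-fold higher and 3.18% at least 2-fold lower, the ribosomal median was -0.13, with 14 of 79 above 0. The mitochondrial messages lay at 0.51 to 1.11 in that comparison, with 8 of 13 at least 2-fold higher and a median of 1.03. Col9a3, Neat1 and Ctsd differed there by 1.06, 1.04 and 0.77, but in the lowest brain by 0.57, 0.003 and 0.59. These cells of cluster 1 numbered 89, 33, 11 and 19 in the hashtag 1 to 4 brains. Malat1 differed by 0.39 against all of cluster 1 and by -0.60 against its cells of overlapping depth. The immediate early genes Jun, Egr1 and Fos differed by -1.09, -0.98 and -0.73 from those cells and were lower in every brain. They are picked from the genes leading on that side, and the other genes of their list are not given here.

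Rhox5-cluster-nearest cells could be set beside clusters 0, 2, 7 and 10 in the hashtag 3 and 4 brains, where at least 10 of them were present. Their median mitochondrial share was 9.17 and 10.1% in the hashtag 3 and 4 brains, against 1.27 and 1.27% in those clusters. They were also far shallower, with a median of 4234 UMIs against 14875. Among the 135 cells of those clusters of overlapping depth, still deeper with a median of 5533 UMIs, the mitochondrial medians were 2.68 and 1.85%.

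The mitochondrial messages differed most in these cells. All 13 were at least 2-fold higher than in clusters 0, 2, 7 and 10, by 1.71 to 3.07. The mt-Co1 message was at 244 and 242 per 10000 nuclear UMIs in Rhox5-cluster-nearest cells of the hashtag 3 and 4 brains, against 35.3 and 34.2 in those clusters (2.80). The mt-Nd6 message was at 1.66 and 1.77 against 0.09 and 0.15 (3.07). In both brains the 2 groups were far apart.

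Nuclear genes differed in number too. Of 6326 nuclear genes, 1013 (16.0%) were at least 2-fold higher and 25 (0.395%) at least 2-fold lower, and the median over all genes was 0.45, so single genes are best read against that shift. Nuclear-retained RNAs stood above it, with 4 of 6 at least 2-fold higher and a median of 1.3. Malat1 was at 344 and 393 per 10000 in Rhox5-cluster-nearest cells of the hashtag 3 and 4 brains, against 84.0 and 113 in the clusters (1.90), and Neat1 at 3.63 and 3.38 against 1.3 and 1.04 (1.51). Most of these cells were nearest cluster 10, which was pooled with the others and not compared alone. Per 10000 of all UMIs, the nuclear-retained list summed to 151 in cluster 10, against 108, 109 and 85.1 in clusters 0, 2 and 7. Malat1 was at 144 in cluster 10, against 99.4, 99.5 and 77.3, and at 343 in Rhox5-cluster-nearest cells. The largest difference among the better expressed genes was in Spty2d1, a histone chaperone, at 5.75 and 5.35 against 1.02 and 0.96 (2.37). Hspg2, the large basement membrane proteoglycan perlecan, was at 1.89 and 2.48 against 0.53 and 0.59 (1.79). Esyt2, a protein that tethers the endoplasmic reticulum to the plasma membrane, was at 2.79 against 0.66 (1.93).

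Ribosomal protein messages lay well below that shift, with a median of -0.49, 1 of 79 above 0 and 0 at least 2-fold lower. Rpl35 was at 61.8 in Rhox5-cluster-nearest cells and 120 in the clusters (-0.95), and Tmsb10, a small actin-binding protein, at 53.7 and 104 (-0.95). The nuclear genes of the respiratory complexes had a median of -0.27, with 0 of 60 at least 2-fold different. Rhox5 was close in both, at 4.44 ± 0.61 and 5.25 ± 0.25 (SD, n = 2 brains).

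Cells of overlapping depth changed part of this picture. Against them 15.6% of nuclear genes were at least 2-fold higher and 3.51% at least 2-fold lower. The mitochondrial messages differed by 0.56 to 2.19, with 11 of 13 at least 2-fold higher, Malat1 by 1.02, Spty2d1 by 2.1 and Hspg2 by 1.72, while the ribosomal median was -0.17. Choroid plexus markers summed to 182 per 10000 in Rhox5-cluster-nearest cells, against 901 in the shallow cells of clusters 0, 2, 7 and 10, and 10 of 12 of these were at least 2-fold lower in Rhox5-cluster-nearest cells. The part of this choroid plexus RNA in the other differences was not tested.

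**Figure D4:**
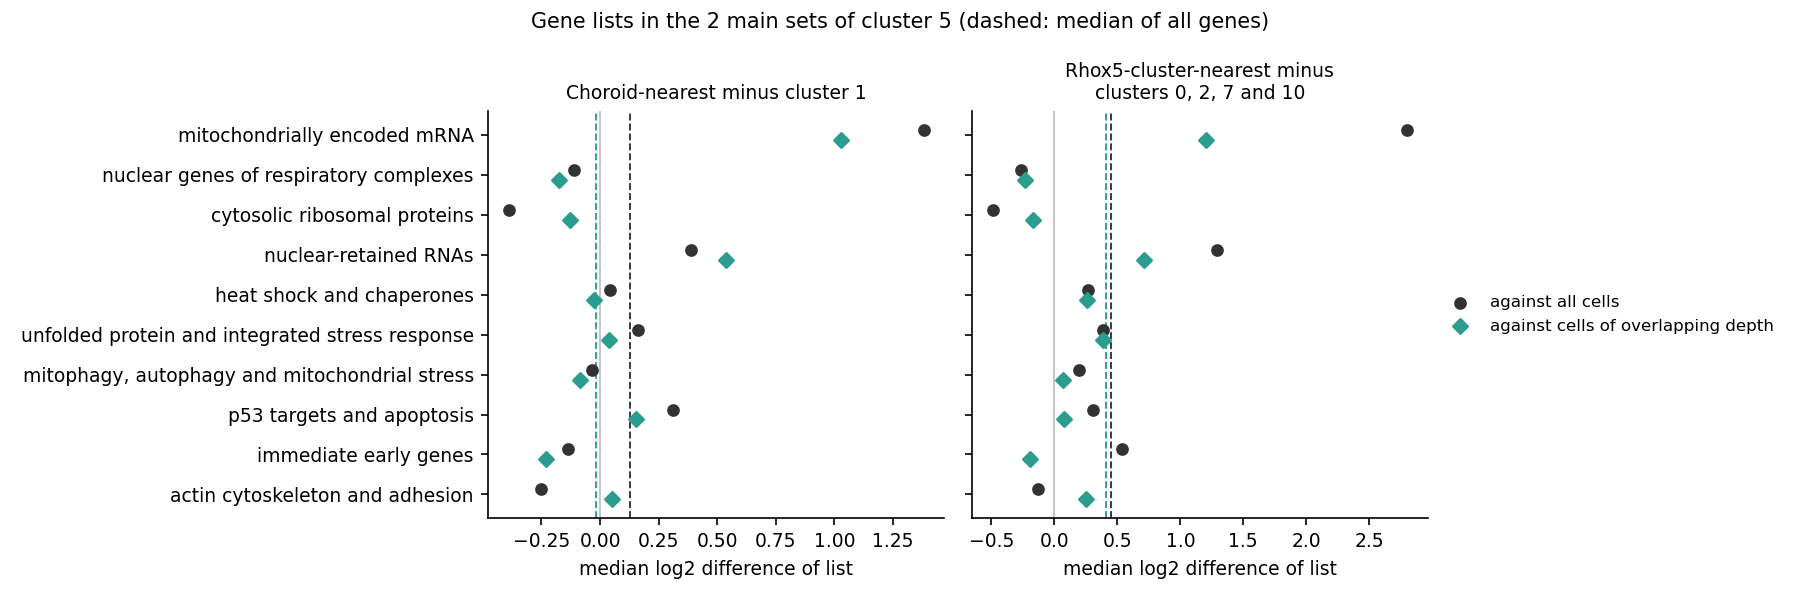
Median log2 difference of 10 gene lists (horizontal axis) in choroid-nearest cells minus cluster 1 (left) and in Rhox5-cluster-nearest cells minus clusters 0, 2, 7 and 10 (right), per 10000 nuclear UMIs. Black circles set the cells against all cells of those clusters and green diamonds against cells of overlapping depth; dashed lines mark the median over all genes (0.13 and 0.45 against all cells), and mitochondrially encoded messages lie farthest right in every comparison.

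Within each set the cells varied along these measures too. Over the 128 choroid-nearest cells, the mitochondrial share had a Spearman correlation of -0.59 with Ttr per 10000 nuclear UMIs, -0.10 with the UMI total and 0.05 with the ribosomal share of nuclear UMIs. Over the 86 Rhox5-cluster-nearest cells it was -0.42 with the UMI total, -0.55 with the ribosomal share and 0.59 with Ttr, which in these cells as a set lay between the levels of cluster 10 and of the immune clusters. These cells share 1 library and a composition that must sum to a whole, and the values are given as descriptions.

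The 8 Ctsk-high cells made up 3.54% of the cells and 4.07% of the UMIs of cluster 5 and held 99.1% of its Ctsk. They had 23 to 65 Ctsk UMIs each and 327 together, where the rest of cluster 5 had 3 UMIs and at most 1 in a cell. Among the 4442 cells of the other clusters, 1 reached 20 UMIs. Acp5 had 31 to 76 UMIs per cell, 416 in all. Mmp9 had 1 to 36, or 139 in all, with 1 UMI each in the cells of the hashtag 1 and 2 brains and 10 to 36 in the others. Atp6v0d2, a subunit of the proton pump that acidifies lysosomes, had 1 to 5 per cell and 21 in all, with 0 in the rest of cluster 5.

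Further genes of the same cells included Dcstamp and Ocstamp, membrane proteins needed for fusion of macrophage-lineage cells in mice, with 6 and 9 UMIs, Tcirg1, another proton pump subunit, with 11, Nfatc1, a transcription factor of that lineage, with 8, and Calcr, the calcitonin receptor, with 3. These genes were picked by hand after Ctsk had been seen, and others picked with them were scarce: Tnfrsf11a, the receptor RANK, had 0 UMIs, Itgb3, an integrin, 2 UMIs in 1 cell, Ostm1, a partner of a lysosomal chloride transporter, 1, and Ptprc, which encodes CD45, 2. Ctsd was at 4.74 per 10000, against 20.6 in cluster 3. Tyrobp, an adaptor of myeloid receptors, was at 40.4 per 10000 (34.4 to 47.1), against 27.2 in cluster 3 and 14.8 in cluster 6, and Cd68, a lysosomal protein of macrophages, at 11.7 (8.61 to 15.6) against 4.07 in cluster 3. Microglial genes were at or near 0: Cx3cr1 and P2ry12 each had 0 of the 40107 UMIs of these cells, which allows up to 0.75 per 10000 by a floor of 3 UMIs, or 0.92 by the exact Poisson upper limit, against 8.98 and 2.08 in cluster 3. Xist was at 6.98 (4.64 to 10.1) and Rhox5 had 2 UMIs. The intervals of these genes pool the 8 cells and cover counting error only. No marker list for such cells was set, so they are called by their genes.

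The antibody tags set the same 8 cells apart from most, though not all, of the rest of cluster 5. CD45, the protein that marks nearly all white blood cells, ran from 1022 to 6025 tag counts in Ctsk-high cells, with a median of 3063. The medians were 41.0 in choroid-nearest and 34.5 in Rhox5-cluster-nearest cells, with highest cells at 4762 and 2183. CD11b, an integrin of myeloid cells, ran from 1193 to 5493 with a median of 2283, against 45.5 and 36.0. All 8 Ctsk-high cells had 300 or more CD45 counts, as did 9 of 128 choroid-nearest and 6 of 86 Rhox5-cluster-nearest cells. So did 3 of the 4 cells nearest to another cluster, whose CD45 median was 1580. In cluster 5 as a whole 26 of 226 cells (11.5%) reached 300, against 96.7% of cells in clusters 3 and 6 and 7.31% in the other clusters that are not immune.

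**Figure D5:**
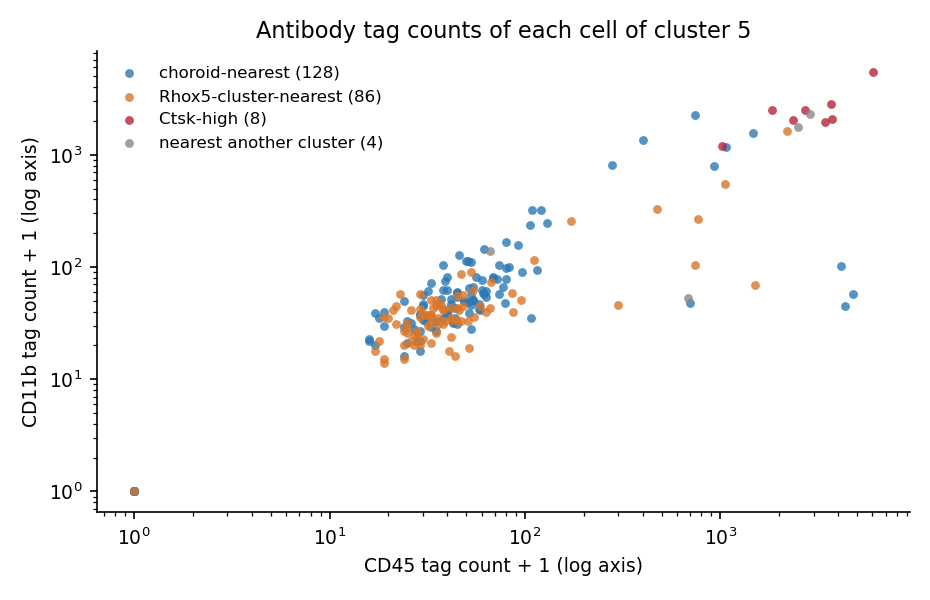
CD45 tag counts (horizontal axis) and CD11b tag counts (vertical axis) of each of the 226 cells of cluster 5, both plus 1 on log axes and coloured by set. The 8 Ctsk-high cells lie at the upper right, from 1022 CD45 and 1193 CD11b counts, above medians of 41.0 and 45.5 in choroid-nearest cells. Some cells of the other sets lie there too, such as a Rhox5-cluster-nearest cell at 2183 CD45 and 1644 CD11b counts.

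The sources used here do not state whether the tags had a part in making the clusters. The tags were taken as separate from them and tested across brains. Mean log2 tag counts in cluster 5 were set against the mean of the other clusters that are not immune, by an exact two-sided sign-flip permutation test whose smallest p with 4 brains is 0.13. CD86, a co-stimulatory protein of antigen-presenting cells, differed by -0.39, -0.31, -0.14 and -0.32 in the hashtag 1 to 4 brains, a mean of -0.29 ± 0.10 and lower in 4 of 4 brains (exact p = 0.13, adjusted 0.19 over 6 tags). CD11b (-0.25 ± 0.29), CD4 (-0.24 ± 0.17) and CD3e (-0.20 ± 0.10) were also lower in 4 of 4 brains with the same exact p. The direction of CD11b turned with the measure, to 0.023 by median counts and 0.080 percentage points as a share of all tags. CD45 differed by -0.81, -0.81, -0.22 and 0.00 (exact p = 0.25, adjusted 0.3), and CD25, the interleukin-2 receptor alpha chain, by -0.05 ± 0.15 (exact p = 0.875). No tag passed the adjusted threshold, which this design cannot reach. Without the 8 Ctsk-high cells the mean was -0.68 for CD45 and -0.47 for CD11b.

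Cells of cluster 5 carried less of their own hashtag than the pooled other cells of their brain, though not less than every cluster. Of all hashtag counts of a cell, the part that matched its assigned brain had a median of 71.2, 69.4, 83.2 and 92.0% in cluster 5 of the hashtag 1 to 4 brains, against 78.9, 74.6, 89.2 and 94.3% in all other cells of the same brain, a difference of -5.29 ± 2.26 percentage points, lower in 4 of 4 brains (exact p = 0.13). Total hashtag counts had medians of 359, 248, 762 and 1135 in cluster 5, against 574, 413, 962 and 1493 (exact p = 0.13), also lower in 4 of 4. In cluster 1 the own share was 75.3, 74.0, 76.7 and 78.4%, which is below cluster 5 in the hashtag 3 and 4 brains, and total counts were 354, 311.5, 401 and 410.5, which is below cluster 5 in all but the hashtag 2 brain. Cluster 9, at 64.9 and 68.2%, had a lower own share than cluster 5 in the hashtag 1 and 2 brains. The sets stood apart on this as well: the median own share was 70.6% in choroid-nearest, 91.9% in Rhox5-cluster-nearest and 98.0% in Ctsk-high cells, beside 75.9% in cluster 1. In cluster 5, 35.5, 24.1, 52.7 and 72.5% of cells of the hashtag 1 to 4 brains had at least 80% of counts from their own hashtag.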

How the data were processed

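The authors deposited a table of expression per gene and cell as the natural log of 1 + UMIs per 10000, and a cell table with tag and UMI counts, the mitochondrial fraction, the hashtag class and the cluster, per the file headers. Per the submitters' processing notes, Cell Ranger 2.1, Seurat 2.3.4 and mm10 were used, in roles these do not state. Tag counts were made with CITE-seq-Count 1.3.4, per the series text. How cells were filtered, doublets treated and clusters made is not given in the sources used here. No cell was removed. The mitochondrial fraction of the authors equals the share of the 13 mitochondrial messages in the recovered counts.

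UMIs were recovered from the deposited log values and the deposited UMI totals (99.8% of nonzero values whole within 0.01; 2495 to 43038 UMIs per cell). Levels were summed per brain where at least 10 cells were present, averaged over brains, and compared with equal weight for each cluster, as log2 after adding 0.1. The named genes are all mitochondrial messages, the genes with the highest and lowest differences at 1 per 10000 or more and on the same side in every brain, up to 4 genes of each list, and genes of the sets, which were chosen after seeing their values. The members and lists were chosen with earlier results of these data known. Tags and hashtags were tested by exact sign-flip over the 4 brains, which are animals in 1 pooled run, with Benjamini-Hochberg adjustment. Cells are not replicates and were not tested. The steps were also run on simulated counts. These held no added spread between cells or brains, so they cannot show how well real cells are assigned. Python 3.11.15, numpy 2.4.6, pandas 2.3.3 and scipy 1.17.1 were used. The cDNA was read at the 3′ end, so levels are not compared between genes.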

Additional observations from a re-analysis of the deposited data

Results flagged for a closer look

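Over 93 sets of 4 brain values, 4 had 1 brain far from the other 3 by Dixon's test, which chance gives in about 1 of 20 groups. The CD25 tag difference was -0.28 on the log2 scale in the hashtag 1 brain and -0.01 to 0.03 in the others. Atp6v0d2 was at 0.43 per 10000 in cluster 5 of the hashtag 2 brain, against 0.17 to 0.21 in the others; this brain has 1 Ctsk-high cell among 29, and that cell held 5 Atp6v0d2 UMIs. Lyz2, a lysozyme of myeloid cells, was at 3.79 per 10000 in the hashtag 4 brain, against 1.79 to 2.06. Hspa1a was at 1.52 per 10000 in the hashtag 4 brain, against 0.00 to 0.09 in the others, and 56 of its 62 UMIs lay in 1 cell.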

How the results depend on the processing

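Counts of genes past 2-fold depended on the settings more than the mitochondrial difference did. In cluster 5, 250 genes were higher and 306 lower; the counts were 30 and 66 with a pseudocount of 1, 586 and 461 with 0.01, 97 and 144 for genes at 1 per 10000 or more, and 84 and 105 against all other cells pooled. The higher count was 424 per 10000 nuclear UMIs and 400 in cells with at least 80% own hashtag. With 1 brain left out in turn they ran from 239 to 337 and from 232 to 502. Against cluster 1, 266 higher and 33 lower genes became 177 to 445 and 26 to 89 with a brain left out, and 407 were higher per 10000 nuclear UMIs. For choroid-nearest cells, 109 higher and 47 lower genes became 113 to 220 and 46 to 124 with a brain left out, 234 and 194 against cells of overlapping depth, and 41 were higher per 10000 UMIs of all genes. For Rhox5-cluster-nearest cells, 1013 higher genes became 1280 to 1306 and 25 lower genes 43 to 197 with a brain left out; 233 were lower against cells of overlapping depth and 54 per 10000 UMIs of all genes. The cause was not tested. The share of cluster 5 in the hashtag 1 brain was 5.53% among cells with at least 80% own hashtag and 9.51% of non-immune cells, and in the hashtag 2 brain 4.55% among cells with at least 80% own hashtag. The mitochondrial difference stayed between 9.63 and 10.8 percentage points under its 6 alternatives. The CD11b difference was 0.080 percentage points as a share of all tags (exact p = 1) and 0.023 as a median count (exact p = 0.75), and CD25 0.15 (exact p = 0.625), 0.057 (exact p = 0.375) and, with a brain left out, -0.085 to 0.019. Tested with no replicate block, by an exact permutation of 4 against 4 brain values, tags gave a p of 0.0857 (CD86, CD3e) to 0.83 (CD25), own hashtag share 0.457 and total hashtag count 0.486, and no call changed. Without the Ctsk-high cells, Ctsk (-0.43), Acp5 (-0.54), Mmp9 (-0.46) and Atp6v0d2 (-0.061) turned round; with a brain left out, Hspa1a ran from -0.88 (without hashtag 4) to 1.61 (without hashtag 1). The median of all genes lay 0.13 higher per 10000 nuclear UMIs, and 80 of 81 named genes and 27 of 30 lists moved by less than their spread between brains. Depth limits genes under 0.2 per 10000, the 8 Ctsk-high cells and the 29 cells of the hashtag 2 brain.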
